A study of Mus musculus with 18 samples.

Results

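Loci annotated as small nuclear RNA (snRNA) were followed through 18 libraries of RNA from mouse embryonic stem (ES) cells. They were chosen by the biotype written in each row name of the deposited count table, and 1382 of 47643 genes carry the snRNA biotype. Of these, 11 have names that start with Rnu and 1371 are copies with predicted-gene (Gm) names. The cells are of the ES line 5G6GR, which carries a Gata6 fusion protein that can be switched on, and were kept without feeder cells and, in every group, in medium with LIF, puromycin and blasticidin. For 15 libraries, total RNA diluted to 10 pg was copied by RT-RamDA, a reverse transcription that copies the template repeatedly by pushing off the cDNA already made, and amplified with 17 PCR cycles. There were 3 libraries for each of 5 primer sets, namely random hexamers (N6), oligo(dT) (dT), NSR (not-so-random primers, picked so that they miss ribosomal RNA, rRNA), and N6 or NSR mixed with dT (N6dT, NSRdT). The 3 bulk libraries were made from 200 ng of RNA depleted of ribosomal RNA with 7 PCR cycles, and their labels name N6 as the primer.

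Spliceosomal snRNAs are short, abundant nuclear RNAs that carry no poly(A) tail and act inside protein particles, the snRNPs, to remove introns. U1 pairs with the 5′ splice site, U2 pairs with the branch site, U4 holds U6 inactive until it is released, U6 forms the catalytic centre with U2, and U5 aligns the exons, while U11 and U12 serve the minor spliceosome. U7 is counted as an snRNA by annotation but acts in forming the 3′ ends of histone mRNAs. Mammalian genomes hold many copies of these genes, most of them pseudogenes, and several expressed copies are identical or differ at a single base.

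Sequences of the U1, U2, U4, U11 and U12 classes are shown because copies were assigned to a class by their match to a defining RNA, and because the values below turn on copies that differ from them by 0 to a few bases. They are GENCODE vM21 transcripts on the GRCm38 (mm10) build, printed 5′ to 3′ with T for U. Capitals mark the stretch of U1 that pairs with the 5′ splice site (TTACCTG), the branch-site pairing stretch of U2 (GTAGTA) and the Sm-type motif (ATTTNTG or ATTTTTTG) on which the ring of Sm proteins assembles. Rnu1a1 lies at chr11:87422867-87423030 (+, in an intron of Tex14), Rnu1b1 at chr3:96359953-96360117 (-), Rnu2-10 at chr11:101658238-101658428 (+), Gm24407 at chr5:115490254-115490394 (+), Rnu11 at chr4:132270080-132270213 (-, opposite an exon of Gm28872) and Rnu12 at chr15:83149644-83149794 (+). Gm24407 stands for U4, which has no Rnu-named locus in the table, and its class was assigned from textbook knowledge of U4.
Rnu1a1: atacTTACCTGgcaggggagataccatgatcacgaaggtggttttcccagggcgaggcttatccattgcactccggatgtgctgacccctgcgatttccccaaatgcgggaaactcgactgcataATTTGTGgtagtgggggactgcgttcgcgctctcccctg
Rnu1b1: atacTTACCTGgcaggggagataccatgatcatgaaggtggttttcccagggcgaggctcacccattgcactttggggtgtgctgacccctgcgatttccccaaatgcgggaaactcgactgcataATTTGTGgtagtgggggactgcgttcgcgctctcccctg
Rnu2-10: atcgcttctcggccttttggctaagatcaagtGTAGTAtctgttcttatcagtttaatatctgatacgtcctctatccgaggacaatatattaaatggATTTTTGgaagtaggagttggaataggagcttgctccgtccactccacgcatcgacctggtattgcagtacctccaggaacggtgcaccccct
Gm24407: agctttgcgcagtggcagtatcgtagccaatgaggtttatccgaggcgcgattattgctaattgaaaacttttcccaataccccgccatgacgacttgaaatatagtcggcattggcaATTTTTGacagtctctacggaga
Rnu11: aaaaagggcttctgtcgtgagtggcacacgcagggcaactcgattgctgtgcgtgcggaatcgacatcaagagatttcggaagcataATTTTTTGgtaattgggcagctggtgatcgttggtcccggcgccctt
Rnu12: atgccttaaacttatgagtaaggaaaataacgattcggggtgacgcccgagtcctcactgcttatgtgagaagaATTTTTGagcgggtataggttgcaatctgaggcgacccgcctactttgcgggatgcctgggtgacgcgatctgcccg

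Matched to the defining RNA of each class, 208 of the 1382 loci were of the U1 class, 54 of U2, 46 of U4, 11 of U5, 954 of U6, 61 of U7, 5 of U11 and 6 of U12, and 37 had no match. A copy was called near full length when it matched at 80% identity or more over at least 80% of the defining RNA, and 696 loci met this. The 1382 loci hold 1306 distinct sequences, and 95 loci have at least 1 identical copy. Rnu1a1 has 6 identical Gm copies, 5 of them on chromosome 12, Rnu1b1 equals Rnu1b2, Rnu1b6 has 2 identical copies, Rnu2-10 has 3 and Rnu6 has 42. Identical loci held exactly equal values in every library, so each value below for such a locus is an equal share of a common pool and not a measure of that locus alone. Rnu1b1 is 95.8% identical to Rnu1a1, and the 2 forms of U1 are known as U1b and U1a. With positions counted from 1 at the 5′ end, Gm22614 and its identical copy Gm25890 differ from Rnu1b1 by T33C, Gm22513 differs from Rnu1a1 by T60C, Gm23444 and its identical copy Gm23472 differ from Rnu2-10 by G109C, and Gm24265 differs from Gm24407 by A88G and A99C. Gm24407 and Gm24265 are neighbours on chromosome 5, the latter at chr5:115489459-115489599 (+), and the U2 loci Rnu2-10, Gm23849, Gm23971, Gm24950 and Gm26316 lie close together on chromosome 11.

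Library totals ranged from 5333546 to 10234690 estimated counts with spike-ins left out. Values are CPM, counts scaled to a common library total, unless stated, n is 3 libraries a group, and errors are SDs over libraries. The labels do not state separate cultures within a group, so a p-value here measures only how far these libraries spread, which may be technical. Reads were amplified by PCR and carry no molecular identifiers, so intervals and floors cover counting error only. The ES cell markers Pou5f1, Nanog, Sox2, Zfp42 and Dppa5a were present in every library, with a sum of 667 to 3553 CPM, and the fibroblast markers Col1a1, Col1a2 and Thy1 summed to 0.207 to 6.38 CPM. The 8 primitive endoderm markers summed to 9024 CPM in bulk replicate 2, to 1013 and 900 CPM in the other bulk libraries and to 381 to 751 CPM in the RT-RamDA libraries. Bulk differs from RT-RamDA in input, kit, removal of rRNA and number of PCR cycles at once, and these cannot be told apart in any comparison with bulk.

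Most Gm-named copies were never seen. A locus was counted as seen in a library at a rounded estimate of 1 count or more, and 525 of 1371 Gm-named copies (38.3%) and 9 of 11 Rnu-named genes were seen in at least 1 of the 18 libraries. The 2 Rnu genes not seen in any were Rnu7 and Rnu6-ps2, where a count of 0 allows a level of up to 0.293 to 0.562 CPM (3 counts, counting error only). Only 18 loci were seen in all 18 libraries: 13 of the U1 class, 2 of U4 and 1 each of U2, U11 and U12. Of the 525 seen Gm copies, 494 averaged less than 1 CPM, and the 10 most abundant held 68.8% of the Gm sum. Near-full-length loci made up 96.8% of all snRNA CPM, although the shares of loci seen were closer, 42.2% of near-full-length loci and 35.0% of the others.

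Rnu-named genes seen per library numbered 7, 6 and 7 for N6, 7, 7 and 7 for NSR, 8, 8 and 6 for dT, 7, 6 and 6 for N6dT, 7, 7 and 7 for NSRdT, and 9, 9 and 9 in bulk. Gm-named copies numbered 79, 82 and 73 for N6, 93, 76 and 71 for NSR, 71, 55 and 52 for dT, 80, 84 and 79 for N6dT, 82, 74 and 96 for NSRdT, and 258, 273 and 245 in bulk. Every bulk library held more Gm copies than every RT-RamDA library, while dT was lowest but for its first library, which equalled the third NSR library. Thinned to 5333324 counts a library, the means were 72.3 ± 4.73 for N6, 70.3 ± 12.9 for NSR, 51.7 ± 6.11 for dT, 69.7 ± 2.08 for N6dT, 77 ± 5.20 for NSRdT and 179 ± 15.9 in bulk. At a minimum of 5 counts they were 39.7, 36.3, 35, 36.7, 43 and 48.3 in the same order. Most of the gap between bulk and RT-RamDA was thus in copies with fewer than 5 counts.

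**Figure D1:**
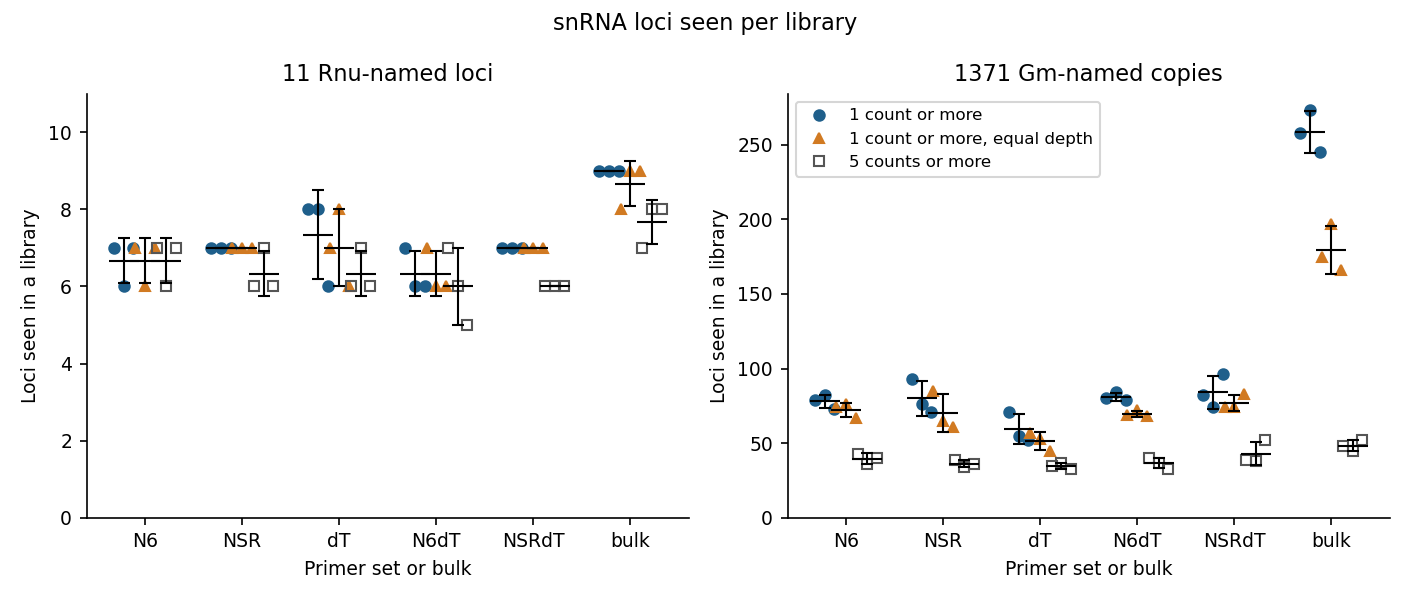
snRNA loci seen in each library (vertical axis, number of loci) by primer set or bulk, for the 11 Rnu-named genes (left) and the 1371 Gm-named copies (right). Points are libraries, horizontal lines are means and bars are SDs. At 1 count or more bulk stands far above every primer set for Gm copies (245 to 273 loci), and at 5 counts or more most of that gap is gone.

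U6 copies were seen in bulk about as often as Gm copies of all classes: they made up 254 of the 386 Gm copies seen there and 952 of all 1371. Of the 952 Gm copies of U6, 254 were seen in any bulk library, 80 for N6, 80 for NSR, 79 for N6dT, 76 for NSRdT and 22 for dT. Part of this number comes from how reads were shared: the Rnu6 sequence is held by 43 loci, and its summed estimates were 37.4, 44.1 and 27.0 counts in the bulk libraries, which is 0.870, 1.03 and 0.629 counts a locus and so rounds to 1 at all 43. The same sequence had 0 counts in all dT libraries and at most 13.3 counts in any RT-RamDA library. With identical sequences counted as 1 locus, the Gm copies seen averaged 203 ± 16.8 in bulk, 49.7 ± 9.86 for dT and 69 to 74.7 with the other primer sets. U6, which is made by RNA polymerase III and carries a short run of U at its 3′ end, summed to 31.0, 34.1 and 32.4 CPM in bulk, 9.28 to 25.5 CPM in the libraries with random primers and 6.25, 5.26 and 3.52 CPM for dT. The dT libraries were the lowest of all for U6, and no RT-RamDA library reached a bulk library. With rRNA, mitochondrial and rRNA-like loci left out of the totals, U6 stood at 35.7, 38.9 and 37.2 CPM in bulk, 38.4, 38.5 and 33.9 for N6 and 8.6, 7.1 and 4.8 for dT, with up to 49.5 for NSRdT and 43.4 for N6dT. On that scale bulk overlapped with N6, N6dT, NSR and NSRdT, and dT was still the lowest. Near-full-length U6 loci held 52.3% of this signal, against 98.9% for U1 and 99.0% for U4.

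Seen copies were more often inside other genes. Of all 1371 Gm copies, 43.8% lie within another gene, against 62.9% of those seen, 68.9% of those seen in bulk and 32.0% of those never seen. For U6 the shares were 72.8% of copies seen in bulk and 44.2% of all copies. Among the seen copies, 165 lie in introns on the host's strand and 146 in introns on the opposite strand. The strand of counting is not given in the sources used here, and the part of host-gene reads in these values was not tested. Of 94 loci with 10 counts or more in any library, 18 had at most 1 count in each of the other 17 libraries, and 17 of these 18 were high in an RT-RamDA library. The highest was Gm25489, a U1 fragment in an intron of Galnt13, with 101 counts in the second dT library.

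The summed level of the snRNA loci was small in every library. The 11 Rnu genes summed to 45.7, 25.9 and 31.2 CPM for N6, 53.9, 38.9 and 35.2 for NSR, 132, 86.7 and 96.6 for dT, 33.3, 28.2 and 20.1 for N6dT, 56.8, 33.3 and 36.6 for NSRdT, and 101, 117 and 99.5 in bulk. The means were 34.2 ± 10.2, 42.7 ± 9.93, 105 ± 24.1, 27.2 ± 6.63, 42.2 ± 12.7 and 106 ± 9.73 CPM. Every dT and bulk library lay above every library of the other 4 sets, and dT and bulk overlapped. The Gm copies summed to 449, 349 and 415 CPM for N6, 616, 410 and 285 for NSR, 1331, 867 and 1010 for dT, 379, 268 and 292 for N6dT, 648, 471 and 417 for NSRdT, and 712, 745 and 658 in bulk. Their means were 404 ± 50.7, 437 ± 167, 1069 ± 238, 313 ± 58.4, 512 ± 121 and 705 ± 43.9 CPM. For the Gm copies dT was the highest group, with its lowest library above the highest of bulk, and bulk lay above all libraries of the other sets. The Rnu genes held 7.71% of snRNA counts with N6, 9.24% for NSR, 8.96% for dT, 8.01% for N6dT, 7.58% for NSRdT and 13.0% in bulk. In each RT-RamDA set the library numbered 1 had the highest sum of both kinds.

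These sums depend on what else fills a library. Loci of rRNA, mitochondrial genes and rRNA-like loci together took 66.4% of counts with N6, 56.4% for NSR, 26.9% for dT, 62.7% for N6dT, 48% for NSRdT and 12.8% in bulk. As CPM of the remaining counts, a scale chosen after the data were seen, the Rnu sum averaged 102 for N6, 98.2 for NSR, 144 for dT, 73.1 for N6dT, 81.2 for NSRdT and 121 in bulk. The Gm sum averaged 1202, 1007, 1464, 843, 984 and 808 in the same order. On this scale N6 and dT overlapped for both kinds, and bulk was no longer above the random primer sets for the Gm copies.

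**Figure D2:**
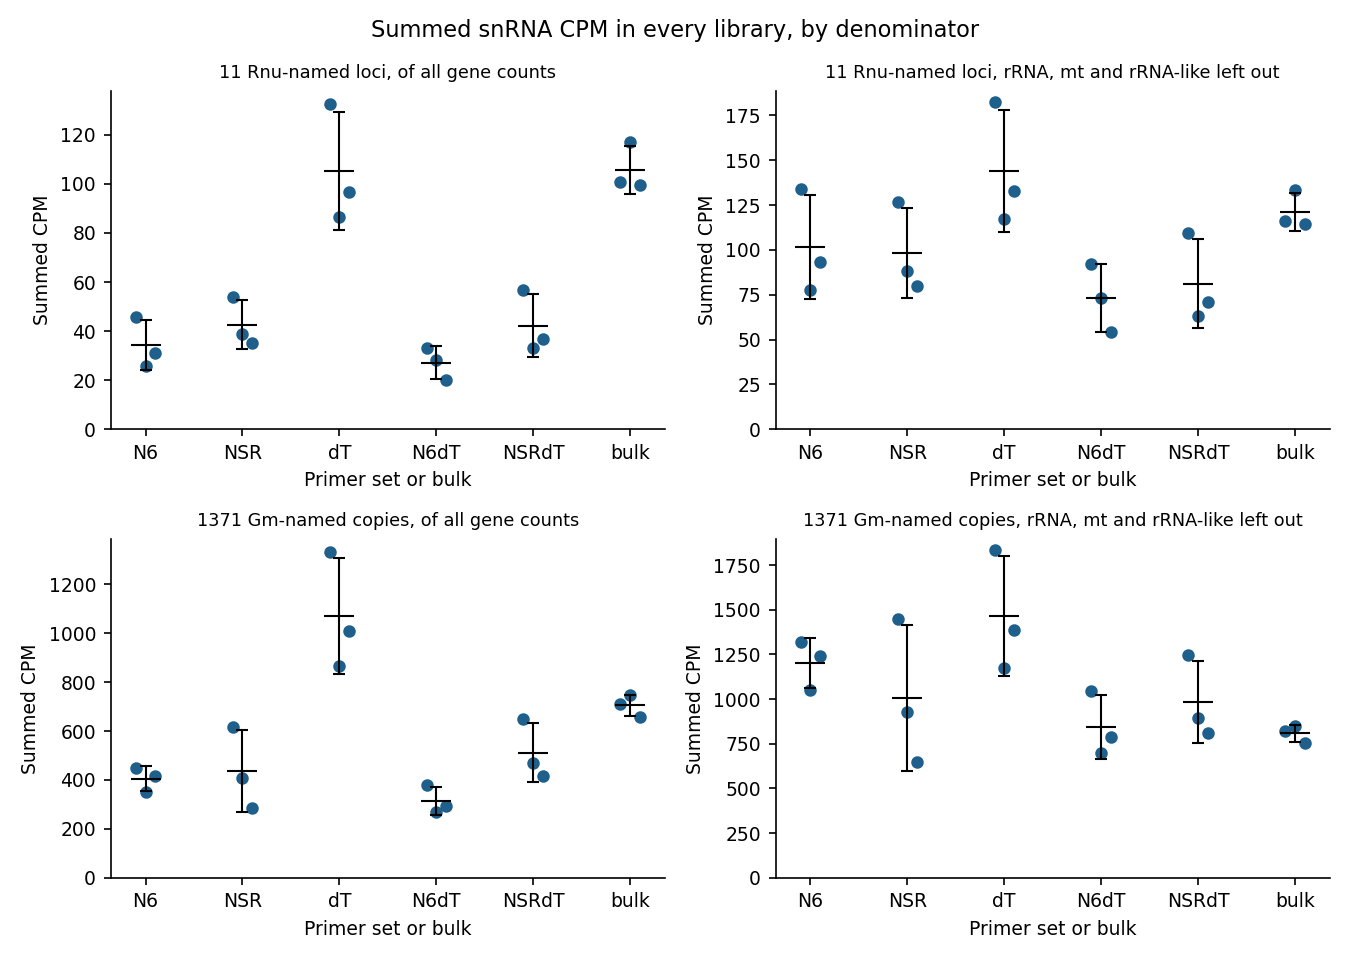
Summed CPM of the Rnu-named genes (top) and Gm-named copies (bottom) in every library, of all gene counts (left) and of counts without rRNA, mitochondrial (mt) and rRNA-like loci (right). Points are libraries, lines are means and bars are SDs. On the left dT stands above the other primer sets, and on the right the groups lie much closer, with N6 and dT overlapping.

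The makeup by class set bulk apart from all primer sets. As shares of snRNA counts, U1 took 67.4% for N6, 74.6% for NSR, 71.1% for dT, 67.6% for N6dT, 71.4% for NSRdT and 48.5% in bulk. U2 took 4.33%, 4.46%, 1.14%, 5.03% and 4.49% with the 5 primer sets in the same order and 42.7% in bulk. U4 took 22.2%, 16.2%, 25.8%, 20.6% and 18.8% with the primer sets and 1.32% in bulk. The RT-RamDA and bulk libraries did not overlap in any of these 3 shares. Within RT-RamDA, dT had the lowest U2 share in all 3 libraries. U6 took 0.432% for dT, 2.65% to 4.0% with the other primer sets and 4.02% in bulk, and U5 took 2.00% for N6 and 1.52% for N6dT against 0.340% for NSR, 0.377% for NSRdT and 0.153% for dT. Per base of the defining RNA, the ratio of U2 to U1 was 0.0552 for N6, 0.0515 for NSR, 0.0138 for dT, 0.0639 for N6dT, 0.0539 for NSRdT and 0.759 in bulk. The ratio of U4 to U1 per base was 0.383, 0.253, 0.422, 0.354 and 0.306 with the primer sets and 0.0317 in bulk. These ratios within a library do not depend on its total. U1b-type to U1a-type counts stood at 0.635 to 0.701 with the primer sets and 0.829 in bulk on average, and the libraries overlapped: the third N6 library, at 0.813, was above 2 of the bulk libraries (0.780 and 0.799).

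**Figure D3:**
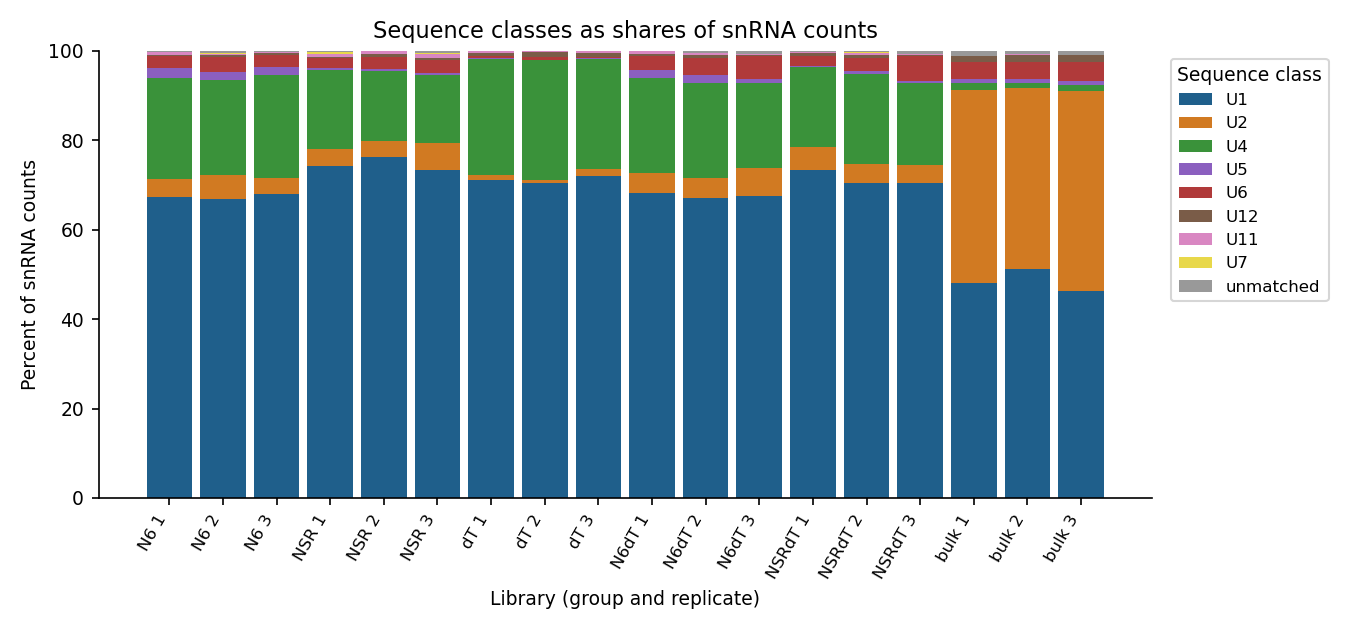
Share of snRNA counts (vertical axis, percent) taken by each sequence class in each of the 18 libraries. U2 fills 42.7% of bulk and 1.14% to 5.03% with the primer sets on average, and U4 fills 1.32% of bulk and 16.2% to 25.8% with the primer sets.

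Tests were run for every gene of the table with edgeR's quasi-likelihood test, adjusted by Benjamini-Hochberg over all genes tested and called at an adjusted p under 0.05. Each change is a log2 fold change ± its standard error (SE). Of the 1382 loci, 44 passed the low-count filter in at least 1 fit (8 Rnu, 36 Gm) and 1338 were never tested. A locus that passes only because 1 group holds its counts had to differ, so the counts of calls are descriptions of the loci tested and say nothing of the rest. Loci of identical sequence are called together, and near-identical copies share reads. The comparisons with bulk share the same 3 bulk libraries and are given side by side.

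Against bulk, N6 gave 21 calls among 39 loci tested (8 higher, 13 lower), where 7.21% of all genes were called (3.31% higher, 3.9% lower). NSR gave 18 of 37 (7 higher, 11 lower), against 8.67% of all genes (4.01% higher, 4.65% lower). dT gave 26 of 40 (14 higher, 12 lower), against 18.8% (6.9% higher, 11.9% lower). N6dT gave 15 of 35 (3 higher, 12 lower), against 4.79% (2.7% higher, 2.09% lower), and NSRdT gave 14 of 36 (6 higher, 8 lower), against 5.28% (2.69% higher, 2.58% lower). As distinct sequences, the calls were 14, 14, 15, 9 and 10. Without bulk replicate 1 the calls numbered 9, 11, 8, 6 and 6, without replicate 2, which held the primitive endoderm signal, 8, 8, 10, 6 and 7, and without replicate 3 they numbered 9, 8, 6, 6 and 6. With library totals as the only scaling, the higher and lower calls became 5 and 16 for N6, 5 and 19 for NSR, 7 and 12 for dT, 3 and 26 for N6dT and 4 and 16 for NSRdT, and the median of all genes moved from -0.03 to -1.39 for N6, to -1.04 for NSR, to -1.23 for N6dT and, from -0.04, to -0.75 for NSRdT. With dT it moved from -0.19 to -0.45.

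Both main U4 loci were above bulk with every primer set. Gm24407 was at 48.8, 37.2 and 52.2 CPM for N6, 63.7, 35.1 and 19.5 for NSR, 186, 138 and 166 for dT, 36.3, 33.6 and 28.9 for N6dT, 63.8, 42.7 and 38.1 for NSRdT, and 5.38, 4.56 and 3.99 in bulk. Every RT-RamDA library lay above every bulk library, and the dT libraries lay above all others. Gm24407 rose by 4.67 ± 0.23 for N6 (edgeR, adjusted p = 6.6e-05), 4.10 ± 0.49 for NSR (adjusted p = 0.00342), 5.39 ± 0.22 for dT (adjusted p = 0.000117), 4.02 ± 0.24 for N6dT (adjusted p = 0.000128) and 4.09 ± 0.29 for NSRdT (adjusted p = 0.000532). The neighbouring copy Gm24265 was at 61.0, 41.2 and 49.3 CPM for N6, 54.0, 35.2 and 28.8 for NSR, 191, 116 and 106 for dT, 51.5, 29.2 and 29.1 for N6dT, 62.1, 59.1 and 40.7 for NSRdT, and 4.78, 3.74 and 4.15 in bulk. Its groups were arranged in the same way, and it rose by 4.94 ± 0.23, 4.23 ± 0.33, 5.29 ± 0.32, 4.32 ± 0.34 and 4.38 ± 0.25 in the same order (edgeR, adjusted p from 5.19e-05 to 0.000533). The 2 copies were never equal in a library, with Gm24265 the higher in 10 of 18. All 10 of these calls held without any one library and by library totals alone, where the changes were 2.82 to 5.13.

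The main U2 loci were below bulk. Gm23444, 1 base away from Rnu2-10, was at 2.09, 2.46 and 2.50 CPM for N6, 0.452, 0 and 0.843 for NSR, 2.02, 1.43 and 1.11 for dT, 2.22, 0.999 and 3.47 for N6dT, 2.73, 2.44 and 1.38 for NSRdT, and 53.4, 60.1 and 58.4 in bulk. No RT-RamDA library came near a bulk library. It was called lower with every primer set, and each call held without any one library. The values were -3.24 ± 0.24 for N6 (edgeR, adjusted p = 0.000349), -4.99 ± 0.36 for dT (adjusted p = 0.000795) and -4.0 ± 0.32 for NSRdT (adjusted p = 0.000839). With NSR and N6dT it passed the low-count filter through bulk, so no fold or test is given. Rnu2-10 was at 1.61, 0.825 and 1.30 CPM for N6, 4.58, 1.43 and 2.30 for NSR, 1.54, 0.800 and 1.83 for dT, 0.605, 0.818 and 0 for N6dT, 4.88, 1.04 and 1.35 for NSRdT, and 18.9, 21.1 and 19.2 in bulk. Its bulk libraries were also above all others. In the fit with NSR it was at -1.78 ± 0.50 (edgeR, adjusted p = 0.0801) and was not called. With the other sets it passed the low-count filter through bulk, so no fold or test is given. It was called lower with N6, dT and N6dT and not called with NSRdT. The 3 calls of Rnu2-10 were lost without any one bulk library.

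Other U2 copies had the same order. Gm25360, with 4 differences from Rnu2-10, was at 60.7, 58.8 and 52.5 CPM in bulk and at 0 to 3.81 CPM in the RT-RamDA libraries. It was called lower with every primer set, with -3.57 ± 0.40 for NSR (edgeR, adjusted p = 0.00237) and -3.90 ± 0.24 for N6dT (adjusted p = 0.000152). With N6, dT and NSRdT it passed the low-count filter through bulk, so no fold or test is given. The dT call was lost without any one bulk library. Gm22973, with 9 differences, was at 38.5, 43.2 and 34.7 CPM in bulk and at 0 to 2.41 CPM in the RT-RamDA libraries. It was called lower with all 5 sets, but only the N6dT call held without each library in turn. In each of these fits it passed the low-count filter through bulk, so no fold or test is given. Gm26316, 1 base away from Rnu2-10, was at 28.8, 15.6 and 22 CPM in bulk and at 0 in all NSR and NSRdT libraries. It equalled Rnu2-10 in 4 other RT-RamDA libraries and was at 0 in libraries where Rnu2-10 had counts, so its zeros cannot be told apart from reads assigned to Rnu2-10, and no fold is given. In all, U2 calls were 9 lower and 1 higher with N6, 7 and 0 for NSR, 9 and 0 for dT, 9 and 1 for N6dT, and 5 and 0 for NSRdT. With identical sequences as 1 feature they were 5 and 1, 7 and 0, 5 and 0, 5 and 1, and 4 and 0. Of all genes, 3.9%, 4.65%, 11.9%, 2.09% and 2.58% were called lower and 3.31%, 4.01%, 6.9%, 2.7% and 2.69% higher, in the same order. Several of the U2 loci passed the low-count filter through bulk, so these counts are no result about the U2 class. The U2 locus called higher was Gm23744, a fragment in an intron of Cep350 on the opposite strand, at 2.76, 4.86 and 1.30 CPM for N6 and 0, 0.220 and 0.206 CPM in bulk. It was called with N6 and N6dT, and both calls were lost without any one bulk library. It passed the low-count filter through these primer sets and not through bulk, so no fold or test is given.

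**Figure D4:**
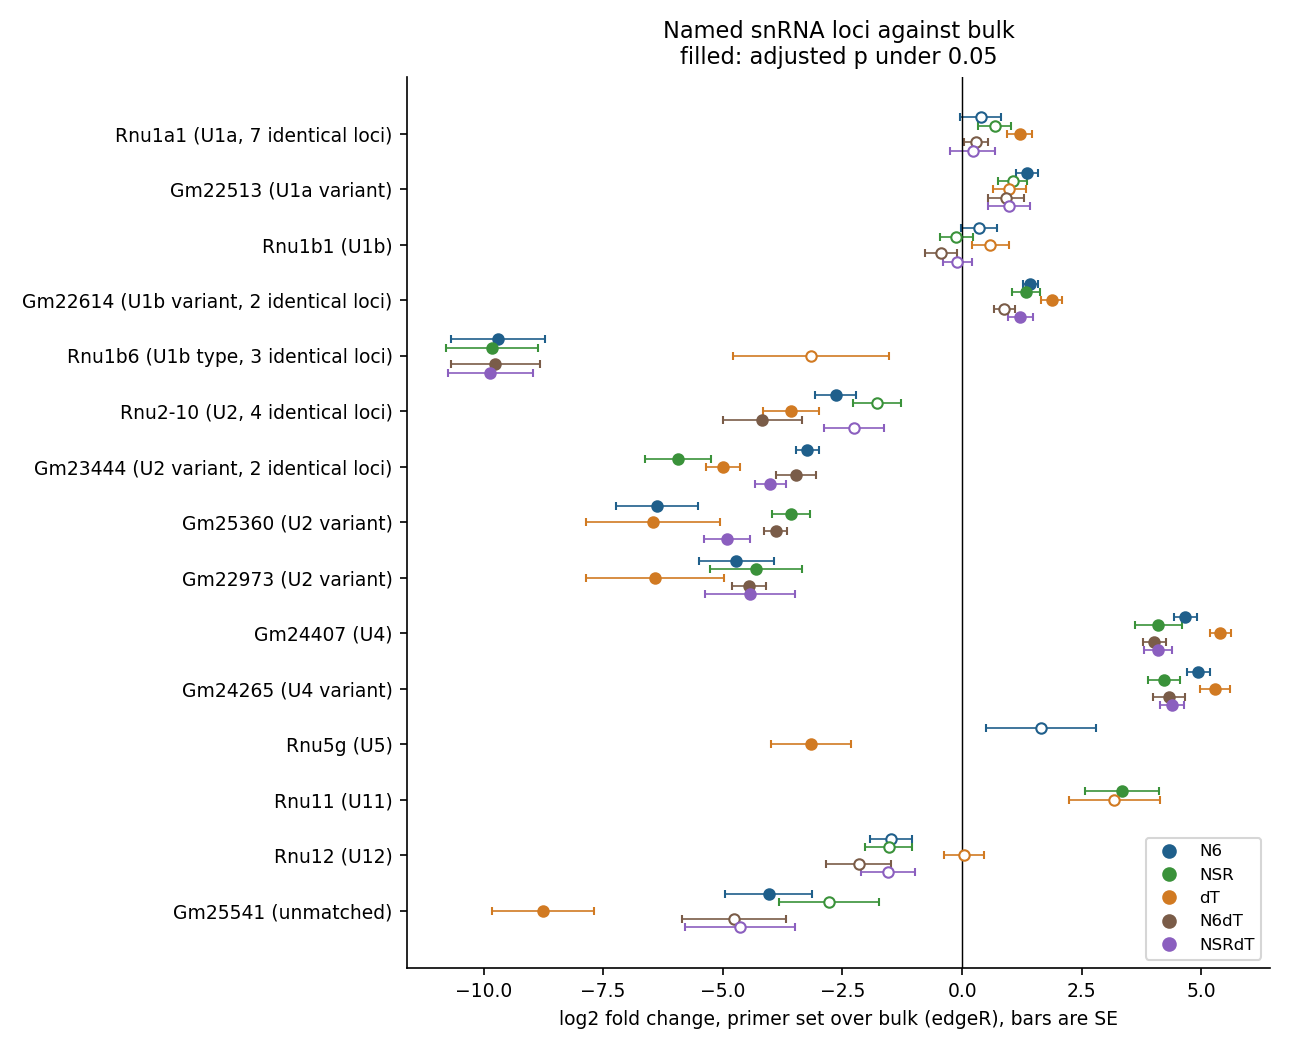
log2 fold change against bulk (horizontal axis) of 15 snRNA loci with each primer set, with bars of 1 SE and filled points where the adjusted p is under 0.05. U4 loci lie at 4.02 to 5.39, the 4 U2 loci shown lie below 0, and U1 loci lie on both sides of 0. The points of Rnu1b6, and that of Gm25541 with dT, rest on estimates near 0 in RT-RamDA and are no measure of a fold.

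U1 calls with TMM scaling numbered 5 higher and 3 lower with N6, 4 and 3 for NSR, 12 and 0 for dT, 0 and 3 for N6dT, and 4 and 3 for NSRdT. By library totals alone these became 2 and 3, 2 and 5, 5 and 0, 0 and 13, and 2 and 3. With TMM scaling, all lower calls were Rnu1b6 and its identical copies. They are a single sequence that passed the low-count filter through bulk. The higher calls of every set but N6dT include Gm24924 and Gm26244, which passed it through RT-RamDA. For NSR and NSRdT the other higher calls were Gm22614 and its identical copy Gm25890. The counts in each direction are thus no result about the U1 class. Gm22614, the U1 locus with the highest mean CPM, was at 51.4, 43.9 and 56.7 CPM for N6, 85.1, 57.5 and 39.0 for NSR, 182, 109 and 153 for dT, 49.2, 33.0 and 33.9 for N6dT, 96.2, 58.8 and 50.3 for NSRdT, and 50.4, 51.9 and 43.2 in bulk. The dT libraries were above all others, and those of the other sets overlapped with bulk. In the fits it was higher with N6 (1.43 ± 0.16, edgeR, adjusted p = 0.0026), NSR (1.34 ± 0.30, adjusted p = 0.0392), dT (1.87 ± 0.22, adjusted p = 0.00589) and NSRdT (1.21 ± 0.26, adjusted p = 0.0482) and not called with N6dT (0.88 ± 0.22, adjusted p = 0.067). By library totals alone the values were 0.06 for N6, 0.32 for NSR and 0.50 for NSRdT, none of them called, and 1.61 for dT, which stayed called. The dT call was lost without bulk replicate 3 (adjusted p = 0.0544), the NSR call without NSR replicate 2 or any one bulk library and the NSRdT call without any one bulk library (adjusted p of up to 0.177 and 0.232).

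Rnu1a1 was at 18.8, 13.9 and 5.45 CPM for N6, 27.8, 19.7 and 11.9 for NSR, 59.6, 38.6 and 45.0 for dT, 15.4, 14 and 10.4 for N6dT, 26.3, 6.77 and 19.4 for NSRdT, and 25.6, 27.7 and 21.5 in bulk. The dT libraries were all above bulk, the N6 and N6dT libraries all below it, and the NSR and NSRdT libraries overlapped with it. It was called only with dT (1.20 ± 0.26, edgeR, adjusted p = 0.0213), a call lost without any one bulk library (adjusted p of up to 0.108) and by totals alone (0.94, adjusted p = 0.0535). Rnu1b1 was at 7.70 ± 2.91 CPM for N6, 7.03 ± 1.36 for NSR, 19.4 ± 6.02 for dT, 5.00 ± 1.08 for N6dT, 8.78 ± 1.65 for NSRdT and 15.4 ± 1.26 in bulk, and was not called in any comparison. The variant Gm22614 was above Rnu1b1 in all 18 libraries. Gm22513 was at 30.8, 31.3 and 25.8 CPM for N6 and 28.7, 37.2 and 22.9 CPM in bulk, which overlap. It was called higher there (1.35 ± 0.23, edgeR, adjusted p = 0.0165), but was at -0.0185 by library totals alone (adjusted p = 0.948), and the call was lost without bulk replicate 1 or 3 (adjusted p of up to 0.109).

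Rnu1b6, a U1b-type gene with 2 identical copies, was seen mainly in bulk. It was at 12.9, 18.7 and 16.6 CPM in bulk, at 0.213, 4.34 and 0.00340 for dT and at 0.0288 CPM or less in every library of the other 4 sets, where its rounded count was 0. Its reads there cannot be told apart from reads assigned to near-identical U1b copies, and it passed the low-count filter through bulk, so no fold or test is given.

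A pair of U1a copies, Gm24924 and Gm26244, showed how single-base copies were resolved. Each differs from Rnu1a1 at 1 base. Gm24924 held the same value as Rnu1a1, within 0.01 counts, in 12 of 15 RT-RamDA libraries, and Gm26244 in 11 of 15, and neither did so in any bulk library. In bulk they were at 0.0788 CPM or less, against 21.5 to 27.7 CPM for Rnu1a1. In single libraries they stood far above Rnu1a1: Gm24924 at 90.2 CPM in the third N6 library and Gm26244 at 123 CPM in the second NSRdT library. Most of their RT-RamDA values were those of Rnu1a1 and they passed the low-count filter through RT-RamDA, so no fold or test against bulk is given. Where their values equal those of Rnu1a1 the level of the copy itself is not known. The U2 copy Gm24497 likewise equalled Gm23444 in 13 RT-RamDA libraries and in no bulk library, where it was at 28.7, 16.1 and 25.5 CPM.

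For U5, Rnu5g, which held the same values as Gm25313 despite 3 differences in 15 of 18 libraries, was at 1.74, 0 and 2.60 CPM for N6, 0.415, 0.723 and 0.328 for NSR, 0.0866, 0.164 and 0 for dT, 0.867, 0 and 1.04 for N6dT, 0.261, 0.562 and 0.129 for NSRdT, and 1.10, 1.33 and 1.14 in bulk. The dT libraries lay below bulk and it was called there, but it passed the low-count filter through bulk, so no fold or test is given. That call was also lost without dT replicate 1 or any one bulk library. Rnu11 was at 3.33, 1.05 and 0.836 CPM for N6, 4.24, 2.85 and 3.23 for NSR, 8.51, 2.37 and 4.57 for dT, 2.81, 1.49 and 0.642 for N6dT, 2.71, 1.87 and 1.04 for NSRdT, and 0.197, 0.786 and 0.988 in bulk. Its NSR and dT libraries were above all bulk libraries. In these comparisons it passed the low-count filter through the primer set and not through bulk, so no fold or test is given. It was called with NSR and not with dT, and the NSR call was lost without any one bulk library. Rnu12 went the other way, at 1.57, 1.44 and 2.10 CPM for N6, 1.57, 3.22 and 1.49 for NSR, 10.2, 11.2 and 10.3 for dT, 1.53, 1.80 and 0.257 for N6dT, 3.35, 3.37 and 0.967 for NSRdT, and 12.1, 13.6 and 11.2 in bulk. All dT libraries of Rnu12 were above all libraries of the other primer sets, and bulk and dT were close, with a value of 0.05 ± 0.42 (adjusted p = 0.962). N6 and NSR gave -1.48 ± 0.43 and -1.54 ± 0.50 against bulk, neither called (edgeR, adjusted p = 0.0937 and 0.118). With N6dT and NSRdT it was not called either. There it passed the low-count filter through bulk, so no fold or test is given. Gm25541, which matched no class, was at 6.94, 4.96 and 5.63 CPM in bulk and 0 in all dT libraries. In that comparison it passed the low-count filter through bulk, so no fold or test is given. Its call there was also lost without any one bulk library.

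Between primer sets few loci were called. For random primers alone (N6 and NSR together) against dT, 1 of 35 loci was called, and it was lower, where 17.1% of all genes were called (9.54% higher, 7.54% lower). At an unadjusted p under 0.05 there were 4, and DESeq2 called 8 (6 higher, 2 lower). The one was Gm24407, at -1.0 ± 0.29 (edgeR, adjusted p = 0.0273), and it was lost without replicate 2 of N6 or of NSR or replicate 1 or 3 of dT, with adjusted p of up to 0.0871. Gm24265 was at -0.70 ± 0.28 (adjusted p = 0.101), Gm22614 at -0.48 ± 0.27 (adjusted p = 0.256), Rnu1a1 at -0.66 ± 0.45 (adjusted p = 0.36), Rnu12 at -1.55 ± 0.78 (adjusted p = 0.193) and Rnu2-10 at 1.37 ± 1.16 (adjusted p = 0.471). The SEs are large beside these values, so changes of this size were not resolved for single loci. By library totals alone, where the median of all genes moved from 0.12 to -0.80, 14 loci were called, all of them lower with random primers, 11 of them U1 and 2 of them U4. NSR against N6 gave 0 calls of 35 with edgeR (3 at an unadjusted p under 0.05, 1 with DESeq2), where 0.172% of all genes were called (0.0446% higher, 0.128% lower). Adding dT gave 0 of 35 (2 at an unadjusted p under 0.05, 0 with DESeq2), where 2.17% were called (1.8% higher, 0.376% lower). The interaction of NSR with dT gave 0 of 35 (1 at an unadjusted p under 0.05, 0 with DESeq2), where 0.0638% were called (0.0446% higher, 0.0191% lower).

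Other nuclear and cytoplasmic RNAs that lack a poly(A) tail were set beside the snRNAs. Rn7sk, the RNA of the 7SK particle that holds P-TEFb, averaged 1993 CPM for N6, 4729 for NSR, 343 for dT, 1616 for N6dT, 3923 for NSRdT and 13622 in bulk. Rmrp, the RNA of RNase MRP, averaged 442, 842, 18.8, 340, 592 and 3784 CPM in the same order, and Rpph1, the RNA of RNase P, averaged 484, 407, 0.300, 329, 258 and 6867 CPM. All of these, with Rn7s1 and Rn7s2, RNAs of the signal recognition particle, were higher with random primers than with dT: Rn7sk by 4.10 ± 0.09, Rmrp by 5.95 ± 0.19, Rpph1 by 11.37 ± 0.50 and Rn7s1 and Rn7s2, whose values are equal, by 3.34 ± 0.14 (edgeR, adjusted p from 9.99e-15 to 6.87e-11). All 5 were also lower than bulk with every primer set. In CPM, Gm24407, Gm22614 and Rnu1a1, which also lack a poly(A) tail in their mature form, had their highest group means with dT. There Rn7sk, Rmrp and Rpph1 had their lowest, and so did the U2 class (13.6 CPM) and the U6 class (5.01 CPM). For U2 the dT libraries overlapped with those of other primer sets. In the edgeR fit of random primers against dT, Gm24407 was called lower with random primers (adjusted p = 0.0273). Gm22614 (adjusted p = 0.256) and Rnu1a1 (adjusted p = 0.36) were not called. In CPM the sum of all 1382 snRNA loci also had its highest mean with dT (1174), as had the U1 class (836) and the U4 class (303). The contrast is thus one in CPM, and the U2 and U6 classes did not share it. The longest run of A in the printed snRNAs is 3 to 5 bases, and where oligo(dT) primed on any of these RNAs was not tested.

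**Figure D5:**
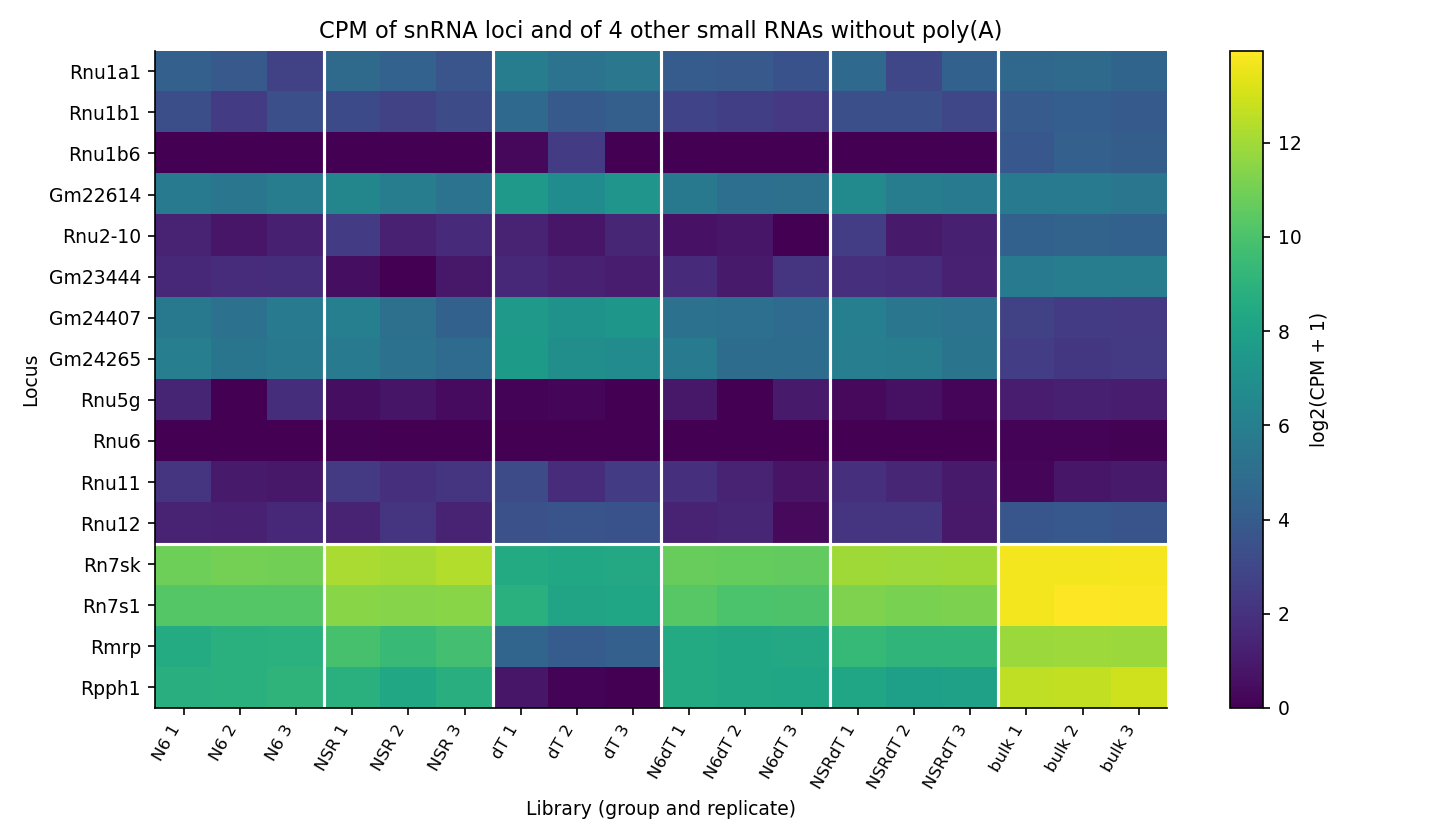
Level in every library, as log2(CPM + 1), of 12 snRNA loci (above the white line) and 4 other small RNAs without poly(A) tails (below it), with white lines between groups. Bulk is the brightest column block for Rn7sk, Rn7s1, Rmrp and Rpph1 and for the U2 loci Rnu2-10 and Gm23444, while the U4 loci Gm24407 and Gm24265 are brightest with dT and darkest in bulk.

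The Sm-type motif was searched in all snRNA loci on both strands. It was present in 21.7% of the 1382 loci on their own strand, and in 35 of 36 loci (97.2%) of the classes U1, U2, U4, U5, U11 and U12 that averaged 1 CPM or more. Identical loci are counted singly among the 36, such as the 7 loci of the Rnu1a1 sequence. Of the loci of these classes that were never seen, 34.0% hold it. Near-full-length loci and the whole class held it in 75% and 47.1% for U1, 93.8% and 42.6% for U2, and 80% and 17.4% for U4. The shares were 100% and 80% for U11, 75% and 66.7% for U12, and 90% and 90.9% for U5. The part of length in the gap between seen and never-seen loci was not tested. Among 3606 other vM21 transcripts of 100 to 200 bases it was found in 4.22% on the sense strand and 5.88% on the other. The 2 patterns do not overlap, and a match is only a description of the letters. U6, which binds LSm and not Sm proteins, held it in 13.7% of loci and on the reverse strand in 17.3%.

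mRNAs of the proteins that make, assemble and fill snRNPs are polyadenylated and were described by lists. Of 113 such genes tested, 6 were higher and 25 lower with random primers than with dT. Over all genes tested, 9.54% were called higher and 7.54% lower. The median of the 113 was -0.49 beside 0.12 over all genes tested. By library totals alone 1 was higher and 79 were lower, but on that scale 818 of all 15682 genes were higher and 4330 lower, with a median of -0.80. The Sm core, the ring on the Sm-type motif, had 6 of 8 genes lower and none higher, among them Snrpb (-2.08 ± 0.20, edgeR, adjusted p = 1.75e-06) and Snrpe (-2.55 ± 0.23, adjusted p = 6.63e-07). Snrpb averaged 21.9 CPM for N6, 15.9 for NSR, 150 for dT, 46.9 for N6dT, 57.6 for NSRdT and 116 in bulk. The LSm proteins, which bind U6 or mRNA, had 6 of 9 lower, among them Lsm5 (-3.76 ± 0.40, adjusted p = 4.75e-06) and Lsm3 (-1.14 ± 0.30, adjusted p = 0.0145). Not all lists had this order: Prpf8, the U5 protein at the catalytic core, was higher with random primers (0.87 ± 0.17, adjusted p = 0.00215), and Sf3b1, a U2 protein, was at 0.22 ± 0.18 (adjusted p = 0.444). Ssb, the La protein that binds the U-rich ends of polymerase III transcripts, was lower (-0.91 ± 0.15, adjusted p = 0.000569).

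Adding dT to random primers raised 4 of 8 Sm core genes and 3 of 9 LSm genes and lowered none, where 1.8% of all genes were called higher and 0.376% lower. Against bulk, the 113 genes had 2 higher and 10 lower with N6 (3.31% and 3.9% of all genes), 5 and 11 for NSR (4.01% and 4.65%), 18 and 4 for dT (6.9% and 11.9%), 1 and 3 for N6dT (2.7% and 2.09%), and 1 and 2 for NSRdT (2.69% and 2.58%). The Sm core had 5 of 8 lower with N6 and with NSR, 4 higher with dT, 1 lower with N6dT and none either way with NSRdT. By library totals alone all 8 Sm core genes were called lower than bulk with each set that held random primers, and 3 higher with dT, but on that scale 8585 of 15207 genes were lower with N6, 5946 of 15418 with NSR, 7988 of 15234 with N6dT and 3765 of 15554 with NSRdT. With TMM scaling, the factors of snRNA transcription (15 genes, among them Pou2f1) and the Integrator complex with 3′ processing factors (22 genes, among them Ints7 and Ints3) had at most 2 calls on a side in any comparison between primer sets or with bulk. The lists for export and assembly (19 genes, among them Xpo1 and Srrt), U1 and U2 proteins (14), U4/U6 and U5 proteins (17) and minor spliceosome proteins (9, among them Snrnp48 and Rnpc3) had at most 3, 6, 2 and 2 calls on a side except for 4 higher for export and assembly with dT against bulk. By library totals alone, with N6 against bulk, 13 of 15 transcription factors, 20 of 22 Integrator and processing genes, and 18 of 19, 14 of 14, 17 of 17 and 6 of 9 genes of the last 4 lists were lower.

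Over the 6 group means, the genes at 10 CPM or more in bulk whose log2(mean CPM + 1) was most like that of the summed Rnu genes were Zkscan17, Gapdh and Nop2, each with a Pearson r of 0.998, out of 9284 genes compared. The points share library totals and groups, and this is a description over 6 points.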

How the data were processed

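Gene-level values came from a table of 115125 transcript entries in 18 libraries, deposited by the authors as estimated counts (55.2% of the nonzero snRNA values lie more than 0.01 counts from a whole number), with 92 spike-in entries set aside. The reads had been made with bcl2fastq 2.16.0.10 and the build was mm10, per the submitters' processing notes. Which aligner, quantifier and strand setting were used is not given in the sources used here. Estimates were summed per gene, rounded for tests and divided by the library total for CPM. Biotypes came from the row names, and positions and sequences from GENCODE vM21. The defining sequences of U5 and U6 are not reported here.

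Copies were assigned to classes with blastn 2.17.0 against Rnu1a1, Rnu2-10, Gm24407, Rnu5g, Rnu6, Rnu7, Rnu11 and Rnu12. Tests used edgeR 4.0.16 in R 4.3.3 (quasi-likelihood, TMM scaling, the tool's own low-count filter, two-sided, Benjamini-Hochberg over all genes tested). The 15 RT-RamDA libraries shared one fit for comparisons between primer sets, and each primer set was fitted with bulk on its own. Each group had 3 libraries with totals of 5333546 to 10234690, where 3 counts are 0.293 to 0.562 CPM. The code was tested on simulated counts.

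Alternatives were library totals alone, DESeq2 1.42.0 size factors or its test, no low-count filter, a replicate block, each library left out, other denominators, thinning, and identical sequences counted as 1. The members and gene lists were chosen with earlier results of these data known. The rule for naming was the Rnu genes, the 10 Gm loci with the largest mean CPM, Gm loci called in any comparison, the 2 genes of each list with the largest mean CPM, all RNAs without poly(A) tails, and the 3 genes most like the Rnu sum. Gm25489 was named after its value was seen. The lists held ES cell, fibroblast and primitive endoderm markers, RNAs without poly(A) tails, and snRNP protein genes in 8 lists.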

Additional observations from a re-analysis of the deposited data

How the results depend on the processing

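Counts of called snRNA loci depended on the setting. For random primers against dT the 1 call became 14 by library totals alone, 2 without the low-count filter, 2 with a replicate block and 8 with DESeq2, and 0 to 1 without each library in turn. NSR against N6 gave 1 without the filter and 1 with DESeq2, and adding dT gave 1 without the filter, and both stayed at 0 without each library. Against bulk, NSR gave 11 without the filter, dT gave 9 with a replicate block and 16 with identical sequences as 1 feature, N6dT gave 29 by totals alone, 9 without the filter, 6 with a replicate block and 24 with DESeq2, and NSRdT gave 8 with a replicate block and 24 with DESeq2. Leaving out each library gave 8 to 23 calls for N6, 8 to 23 for NSR, 6 to 32 for dT, 6 to 20 for N6dT and 6 to 20 for NSRdT. Over 16766 genes the replicate numbers showed no pairing of the libraries. Correlations of same-numbered deviations ran from -0.0139 to 0.0334 over 45 pairs, and 7 of 18 libraries correlated best with their own number. This measure does not speak of the snRNA loci alone, whose sums were highest in library 1 of each RT-RamDA set. Of 103 named results, 40 kept their side of the threshold without each library, and 60 did under the block, 82 without the filter, 83 by totals alone and 100 with DESeq2. Reversed signs were Gm22513 with N6 against bulk by totals alone (-0.0185), Gm23444 for random primers against dT by totals alone (-0.51) and Rnu11 for the same contrast without N6 replicate 3 (0.03) or dT replicate 1 (0.39), in a range of -0.60 to 0.39. The cause was not tested.

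Summed levels moved with the denominator. Without rRNA and mitochondrial genes in the total, the Rnu sum was 50.8 with N6, 61.0 with NSR, 38.9 with N6dT and 56.7 with NSRdT, and the Gm sum 599, 625, 448 and 687. With TMM-scaled totals the Rnu sum was 50.9 with N6, 75.0 with dT, 35.8 with N6dT and 66.2 in bulk, and the Gm sum 603, 762, 414 and 442. Also without rRNA-like loci, the Rnu sum was 102, 98.2, 144, 73.1, 81.2 and 121 for N6, NSR, dT, N6dT, NSRdT and bulk, and the Gm sum 1202, 1007, 1464, 843, 984 and 808. Without each library the Rnu sum ran over 28.5 to 38.4, 37.0 to 46.4, 91.6 to 114, 24.2 to 30.7, 34.9 to 46.7 and 100.2 to 109 in that order, and the Gm sum over 382 to 432, 347 to 513, 938 to 1170, 280.2 to 336, 444 to 559 and 685 to 729. Gm loci seen were 72.3 with N6, 69.7 with N6dT and 179 in bulk when thinned, 39.7, 36.3, 35, 36.7, 43 and 48.3 at 5 counts or more, and 69 with N6, 73 with N6dT and 203 in bulk with identical sequences as 1. Rnu loci seen were 6.33 with NSR, 6 with NSRdT and 7.67 in bulk at 5 counts or more, 8.67 in bulk when thinned, and 5.67, 6, 5.33, 6 and 8 with N6, NSR, N6dT, NSRdT and bulk with identical sequences as 1. Without each library the loci seen ran over 6.5 to 7, 7, 7 to 8, 6 to 6.5, 7 and 9 for Rnu and 76 to 80.5, 73.5 to 84.5, 53.5 to 63, 79.5 to 82, 78 to 89 and 251.5 to 265.5 for Gm. At these depths, loci under about 0.5 CPM were not resolved.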
